A study of Mus musculus with 2 samples.

Results

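The 39 Hox genes of the mouse lie in 4 clusters, and the H4K12la peaks found in them all lay in one, the Hoxc cluster. The genes were chosen as every protein-coding gene of the RefSeq table (GRCm38.p6, the assembly that mm10 names) whose symbol is Hoxa, Hoxb, Hoxc or Hoxd followed by a number, which gave 39 of 21887 protein-coding genes. Hoxa holds 11 of them, Hoxb 10, Hoxc 9 and Hoxd 9. Peaks were taken within 1 kb of either annotated end of each gene, and anywhere between the first and the last gene of each cluster. This gave 3 of the 46592 peaks of the control library and 6 of the 39768 peaks of the lactate library.

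H4K12la is histone H4 lactylated at lysine 12. It was mapped by CUT&Tag, in which an antibody brings a transposase to the mark so that the DNA beside it is cut and sequenced, in Neuro2a cells, a mouse neuroblastoma line. One library came from cells given NaCl (the control) and 1 from cells given 25 mM lactate, both grown in DMEM with fetal bovine serum, and the series asks whether H4K12la regulates transcription. Since each group is a single library, no test between groups could be made, differences are between these 2 libraries without a replicate check, and intervals cover counting error only.

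Hox genes encode homeodomain transcription factors that give cells of the embryo their position along the head-to-tail axis. The members of a cluster are numbered 1 to 13 from the genes used nearest the head to those used nearest the tail, and genes of the same number in different clusters are paralogs, left by duplications of one ancestral cluster. In cells where a cluster is silent it is usually held in a domain of Polycomb repression, while active clusters carry histone acetylation and trimethylation of H3 lysine 4 over wide stretches.

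At gene ends, 1 of 39 Hox genes was called in control cells library, which is 2.56% (exact 95% interval 0.0649% to 13.5%), beside 32.0% of all protein-coding genes. In the lactate library 3 of 39 were called, or 7.69% (1.62% to 20.9%), beside 44.8% of all genes. Hoxc10 was called in both libraries, as were 28.6% of all genes. Hoxc6 and Hoxc9 were called in the lactate library alone, which is 5.13% of the Hox genes (0.627% to 17.3%), beside 16.2% of all genes. No Hox gene was called with NaCl alone, beside 3.34% of all genes, and 36 were without a call in both. The share of the 39 Hox genes called in each library lay below that of all genes, with an interval that did not reach it. For the 39, the intervals of the shares called in 1 library alone held those of all genes. Among the 9 Hoxc genes the shares were 11.1% in control cells (0.281% to 48.2%) and 33.3% in the lactate library (7.49% to 70.1%). Both of these intervals held the share of all genes. All these intervals treat the Hox genes as independent. The genes lie in 4 clusters, where neighbours can share a stretch without peaks, so the intervals may be too narrow.

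**Figure D1:**
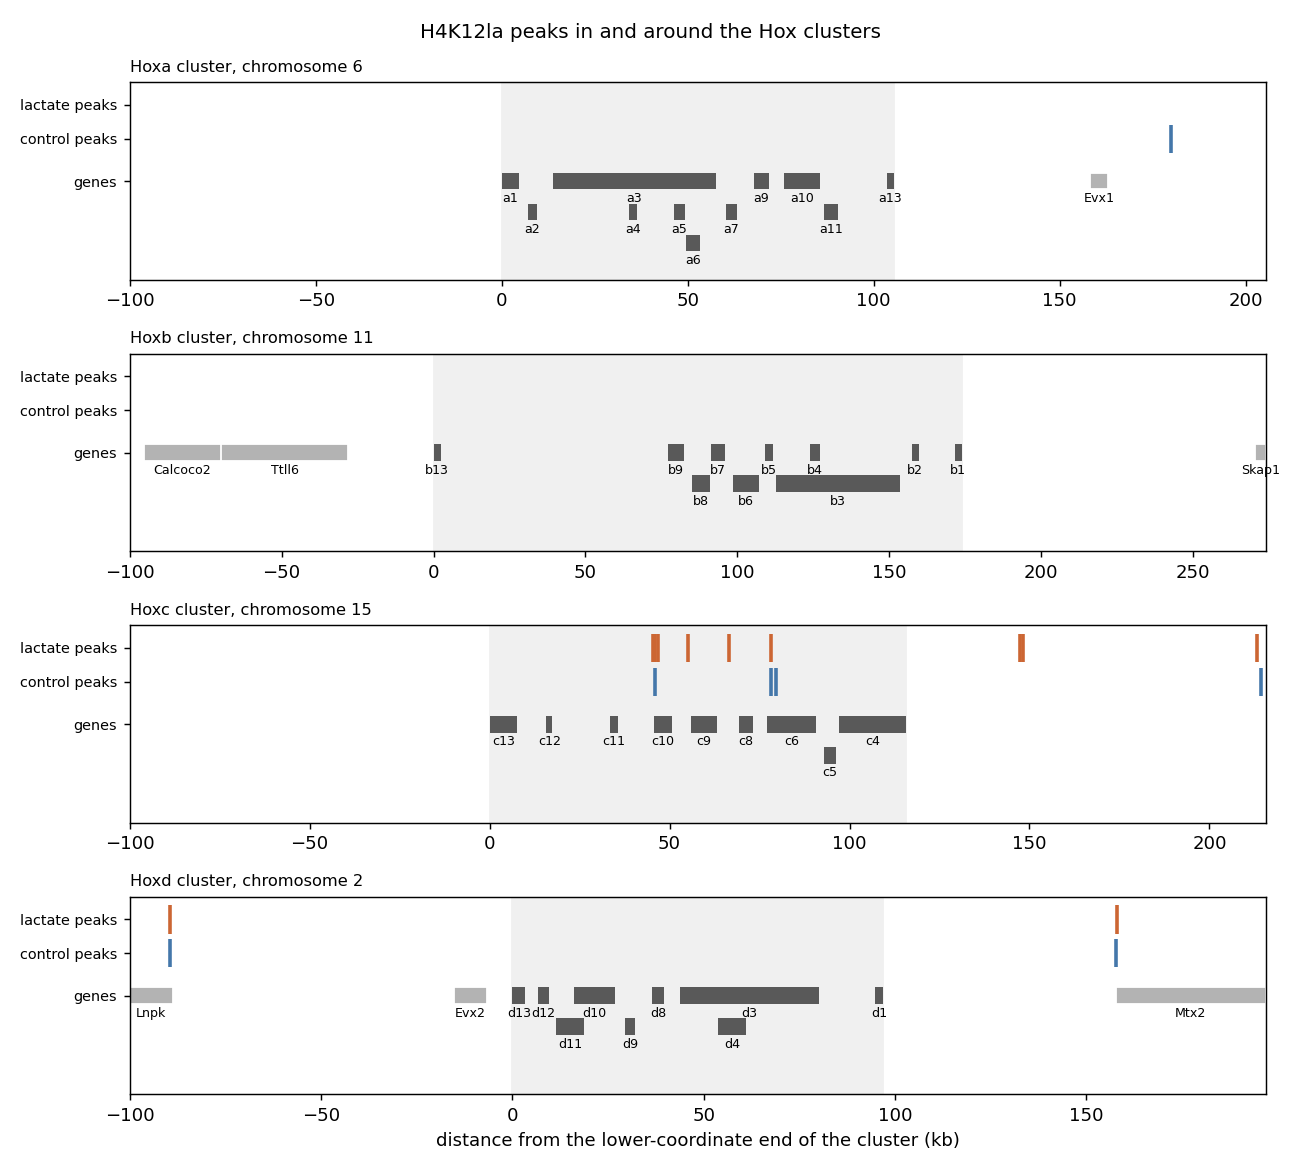
Positions of H4K12la peak summits (coloured bars, upper lane lactate, lower lane control) along the 4 Hox clusters and 100 kb on either side, in kb from the lower-coordinate end of each cluster. Dark boxes are Hox genes, pale boxes neighbouring protein-coding genes, and grey shading marks the span from the first to the last Hox gene. The shaded spans of Hoxa, Hoxb and Hoxd hold no peak, and that of Hoxc holds 3 control and 6 lactate peaks.

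The Hoxa cluster (chromosome 6, 52155367 to 52260880, 106 kb) held no peak in either library. The Hoxb cluster (chromosome 11, 96194316 to 96368254, 174 kb) and the Hoxd cluster (chromosome 2, 74668225 to 74765142, 96.9 kb) held none either. For a single one of these clusters a count of 0 is weak evidence, since it allows up to 35.0 peaks per Mb in Hoxa, 21.2 in Hoxb and 38.1 in Hoxd, while the whole genome had 17.1 per Mb in control cells and 14.6 in the lactate library. Over the 3 clusters together, a grouping made after their counts were seen, 0 peaks in 376 kb allows up to 9.80 per Mb in each library. That is below both genome values, but the grouping leaves out the cluster with peaks, so no conclusion is drawn from it. The Poisson intervals also assume evenly spread peaks, while long gaps fill much of the genome (given below). Over all 4 clusters the rates were 6.10 per Mb with NaCl (1.26 to 17.8) and 12.2 per Mb with lactate (4.47 to 26.5), and both of these intervals held the genome rate. No peak of either list had a summit under 11 overlapping reads, so that signal below that level in these clusters was not detectable.

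The Hoxc cluster (chromosome 15, 102921131 to 103036856, 116 kb) had 25.9 peaks per Mb in control cells (5.35 to 75.8) and 51.8 per Mb in the lactate library (19.03 to 113). Chromosome 15 as a whole had 30.3 per Mb in control cells and 21.3 in the lactate library. The Hoxc rate of the control thus stood near that of its chromosome, and that of the lactate library above it, with an interval that reached below the chromosome's value. Control peaks covered 673 bp of the cluster and lactate peaks 1859 bp.

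The empty clusters lay inside long stretches without any peak. The stretch around Hoxa ran for 621 kb in control cells, between a peak 441 kb below the cluster and one 74.2 kb above it, and for 926 kb in the lactate library, where the nearest peak above lay 379 kb away. The stretch around Hoxb ran for 712 kb in control cells and 701 kb in the lactate library. The stretch around Hoxd was shorter and almost the same in both, at 247 kb and 246 kb. Gaps between neighbouring peaks had a median of 22.3 kb in control cells and 20.8 kb in the lactate library. Such long gaps are few but fill much of the genome: gaps at least as long as that around Hoxa made up 13.9% of all gap length in control cells and 16.0% in the lactate library, and for Hoxd 34.9% and 48.6%.

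Measured gene by gene, the nearest peak to an end of a Hoxa gene lay 74.2 to 175 kb away in control cells and 379 to 449 kb away in the lactate library. For the 10 Hoxb genes the distances were 129 to 300 kb and 118 to 290 kb, and for the 9 Hoxd genes 60.7 to 119 kb and 60.5 to 118 kb. Hoxc genes were closer, at 0.3 to 38.3 kb in control cells (median 10.4 kb) and 0.048 to 37.7 kb in the lactate library (median 9.86 kb). Over all protein-coding genes the median was 7.49 kb in control cells and 2.28 kb in the lactate library. The median Hoxc gene was thus farther from a peak than the median gene in both libraries.

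**Figure D2:**
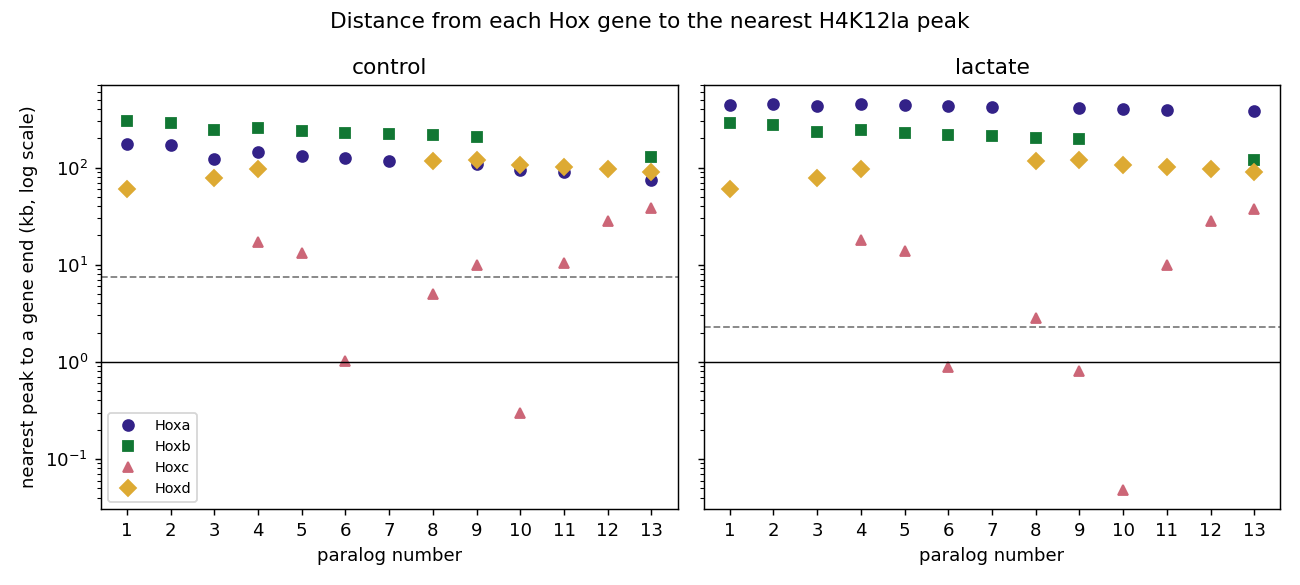
Distance in kb (log axis) from an annotated end of each of the 39 Hox genes to the nearest peak of the control (left) and the lactate library (right), against paralog number, with 1 point per gene and a symbol for each cluster. The solid line is the 1 kb window and the dashed line the median of all protein-coding genes, 7.49 kb in control cells and 2.28 kb in the lactate library. Only Hoxc points lie under either line.

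Within Hoxc the peaks of both libraries lay from just below the lower-coordinate end of Hoxc10 to the first part of Hoxc6, a stretch that also holds Hoxc9 and Hoxc8. The posterior genes Hoxc11, Hoxc12 and Hoxc13 and the anterior genes Hoxc5 and Hoxc4 were each at least 9.86 kb from a peak at both ends and in both libraries. Hoxc13 and Hoxc4, at the outer ends of the cluster, lay 38.3 kb and 17.1 kb from the nearest control peak and 37.7 kb and 17.9 kb from the nearest lactate peak. The paralogs of the called genes in the other clusters (Hoxa6 and Hoxb6, Hoxa9, Hoxb9 and Hoxd9, Hoxa10 and Hoxd10) had no call.

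At Hoxc10, a posterior gene used in the caudal spinal cord and hindlimb, the control peak covered 120 bp (chromosome 15, 102967096 to 102967215) inside the gene, 300 bp from its lower-coordinate end (gene 102966796 to 102971898). It had 12 overlapping reads at its summit (6.20 to 21.0), a fold enrichment over local background of 3.28 and a −log10 q of 2.07, where 11 reads were needed for a call. The lactate library had 3 peaks around this end. The first (102966561 to 102966748) ended 48 bp below the gene with 17 summit reads (9.90 to 27.2), the second (102966991 to 102967148) had 20 reads (12.2 to 30.9), and the third (102967693 to 102967833) had 18 reads (10.7 to 28.4). The second overlapped the control peak by 53 bp, with summits 147 bp apart. The summit intervals of that pair, 12 against 20 reads, overlapped.

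At Hoxc9, a gene of the thoracic axis, which sets motor neuron types in the spinal cord, the lactate library alone had a peak. It lay 805 bp below the gene (102977032 to 102984444). It covered 183 bp (102976045 to 102976227) and had 29 summit reads (19.4 to 41.6) with a fold of 2.23 and a −log10 q of 2.09. The nearest control peak was 8830 bp away. This fold was among the lowest of its list, with 0.546% of lactate peaks at or below it, although 29 reads is above the list's median of 18. The local background, by which the fold divides, was 12.5 reads there, 4.08 times the genome-wide value of 3.06, and at that background a call needed 27 reads.

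Between Hoxc9 and Hoxc8, a gene of the mid-trunk, the lactate library had a peak of 156 bp (102987547 to 102987702) with 22 summit reads (13.8 to 33.3), 2.84 kb from the lower-coordinate end of Hoxc8. It met no gene-end window of 1 kb. The nearest control peak was 11547 bp away.

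At Hoxc6, which patterns the lower neck and upper trunk, both libraries had signal inside the annotated gene (102998226 to 103011882). The control peak (102999249 to 102999487) had 20 summit reads (12.2 to 30.9) and a fold of 2.97. It began 1023 bp from the lower-coordinate end, so that it lay just outside the 1 kb window. The lactate peak (102999120 to 103000152) began 894 bp from that end and counted as a call, with 36 summit reads (25.2 to 49.8) and a fold of 2.94. The summits lay 6 bp apart, and the control peak lay wholly inside the lactate peak. Hoxc6 as a lactate-only gene therefore rests on the window and not on a missing control peak. A second control peak (103000635 to 103000948) had 23 reads (14.6 to 34.5), and no lactate peak within 483 bp.

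The lactate peak at Hoxc6 was the widest in the clusters, at 1033 bp, a width reached by 1.71% of lactate peaks, and it alone of the 9 passed a −log10 q of 5, at 5.30. By that measure it stood at or above 78.4% of its list. The other 5 lactate peaks stood at or above 5.29% to 43.1% of the list, and the 3 control peaks at or above 25.1% to 74.1% of theirs. Most Hoxc peaks were thus ordinary or weak members of their lists by −log10 q.

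**Figure D3:**
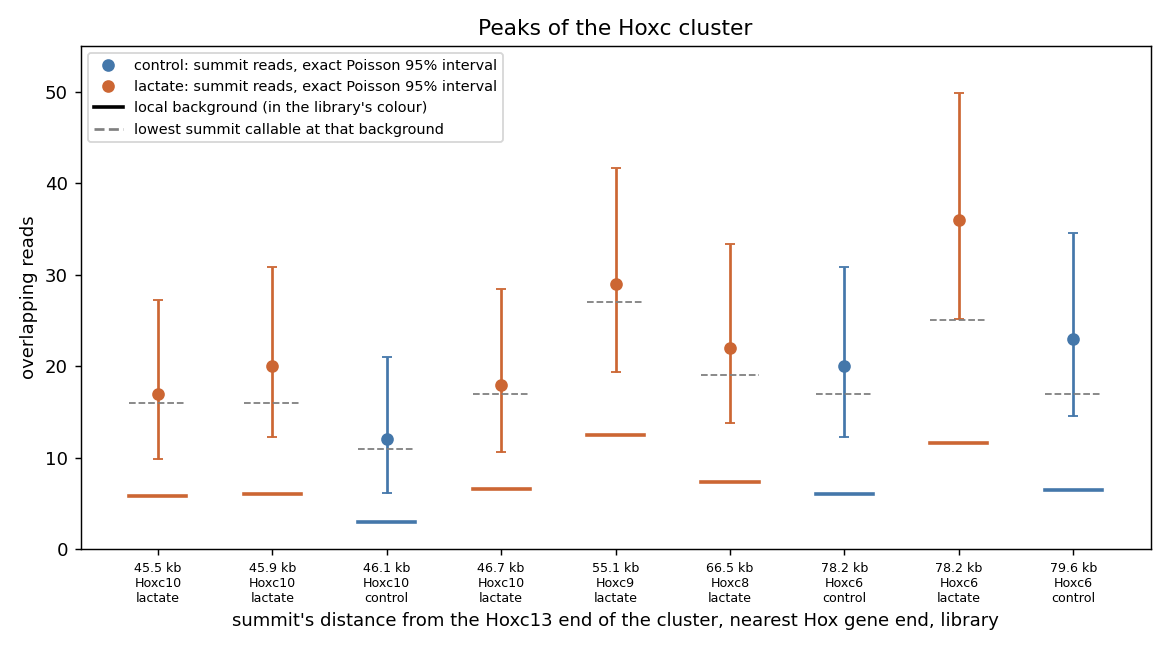
Summit height in overlapping reads, with exact Poisson 95% intervals, of the 9 Hoxc peaks in the order of their summits, labelled with the distance from the Hoxc13 end, the nearest Hox gene end and the library. Solid bars show the local background and dashed bars the lowest summit that would have been called there. The lactate peaks at Hoxc9 and Hoxc6 stand on backgrounds of 12.5 and 11.6 reads, and the control peak at Hoxc10 on 2.96.

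At the Hoxc6 pair the local background was 1.91 times higher in the lactate library and the summit 1.80 times, and at the Hoxc10 pair 2.04 and 1.67 times. Its values moved in steps of 0.02 reads, which is what a single read of 200 bp adds to the mean over 10 kb if the background comes from the library itself (whether a control library was used is not given in the sources). Read that way, the window around the Hoxc6 summit held 304 reads in control cells (271 to 340) and 580 in the lactate library (534 to 629), intervals that did not overlap. Around the paired Hoxc10 summits it held 302 reads in the lactate library (269 to 338), while the control background equalled the genome-wide value, so that its window held no more than 148 reads. The window at the Hoxc9 peak held 624 lactate reads (576 to 675), beside 153 at the genome-wide background. No control value exists there, because the list gives a background only where it has a peak.

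Higher lactate backgrounds were common where both libraries had a peak. Over 15456 pairs of overlapping peaks with summits within 250 bp, the background was 1.33 times higher in the lactate library at the median, and on chromosome 15 it was 1.43 times higher over 886 pairs. It was 1.91 times higher at Hoxc6, a ratio reached by 7.14% of all pairs and 11.2% of those on chromosome 15. At Hoxc10, where the control stood at its genome-wide value, the ratio of 2.04 was reached by 3.29% of all pairs and 5.30% of those on chromosome 15. Both Hoxc pairs thus lay in the upper part of the range without being outside it. Depth differed by 3.43% (more in the lactate library), judged by the genome-wide backgrounds. Among single lactate peaks, 1.41% had a background as high as that at Hoxc9 and 1.88% one as high as that at Hoxc6. Chromosome 15 had a raised median background in both libraries, at 3.72 reads against 3.32 over the whole control list and 5.20 against 4.38 over the lactate list. Its part in the Hoxc values was not tested.

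Of 32 noncoding genes (25 long noncoding RNAs, 6 miRNAs and 1 pseudogene), none had a gene-end peak in control cells and 1 had one in the lactate library. Over all protein-coding genes the shares were 32.0% and 44.8%, and no share over all noncoding genes is given here. The called gene was Gm29905, between Hoxc8 and Hoxc6, whose window is met by the same wide peak as that of Hoxc6. That peak lay 0.953 kb from Gm29905 and the nearest control peak 1.082 kb, so this lactate-only call also rests on the window. Hotair, a long noncoding RNA transcribed between Hoxc12 and Hoxc11 and known in human cells for binding Polycomb complexes, lay 19.2 kb from the nearest control peak and 18.6 kb from the nearest lactate peak. Hotairm1 and Hoxa11os in Hoxa and Haglr in Hoxd had no peak within 60 kb.

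The clusters also encode miRNAs that repress Hox messages. They are shown because the same mature RNA is encoded in a cluster with peaks and in one without. The RefSeq table (GRCm38.p6) places Mir196b in Hoxa, Mir196a-1 and Mir10a in Hoxb, Mir196a-2 and Mir615 in Hoxc, and Mir10b in Hoxd. In the sequences, written 5′ to 3′, the capitals mark the seed (bases 2 to 8).
mmu-miR-196a-5p: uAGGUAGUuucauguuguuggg
mmu-miR-196b-5p: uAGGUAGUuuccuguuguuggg
mmu-miR-10a-5p: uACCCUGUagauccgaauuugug
mmu-miR-10b-5p: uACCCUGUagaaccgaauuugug
mmu-miR-615-3p: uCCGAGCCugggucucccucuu

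The mature miR-196a-5p is the same 22 bases from Mir196a-1 and Mir196a-2, and it shares its seed with miR-196b-5p, as miR-10a-5p does with miR-10b-5p. The Hoxc copy of miR-196a-5p (chromosome 15, 102973365 to 102973386, plus strand) lay between the Hoxc10 and Hoxc9 peaks, 2.66 kb from the nearest lactate peak and 6.15 kb from the nearest control peak. The Hoxb copy (chromosome 11, 96265187 to 96265208, plus strand) lay 189 kb from any lactate peak and 199.6 kb from any control peak. miR-615-3p, encoded by Mir615 within the Hoxc5 gene, lay 14.02 kb from the nearest control peak and 14.8 kb from the nearest lactate peak. None of the 6 miRNA genes had a peak within 1 kb.

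Among the flanking genes, the called ones nearest to a cluster lie on either side of Hoxd, with no peak between theirs. Their peaks do not place a border of the cluster. Gaps at least this long made up 34.9% of all gap length in control cells and 48.6% in the lactate library. Lnpk, which shapes endoplasmic reticulum junctions, lies 88.8 kb below Hoxd13. Its peak had 18 summit reads in control cells (10.7 to 28.4) and 29 in the lactate library (19.4 to 41.6). Mtx2, a subunit of the mitochondrial outer membrane import machinery, lies 60.7 kb above Hoxd1. Its peak had 18 reads in control cells (10.7 to 28.4) and 21 in the lactate library (13.0 to 32.1). The summit intervals of the libraries overlapped at both genes. Evx2, a homeobox gene 6705 bp from Hoxd13, had no call in either library.

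The 250 bases before an annotated start of these neighbours, of both terminal Hoxd genes and of Hoxc4 are given from RefSeq (GRCm38.p6), 5′ to 3′ on the gene's strand with each CpG in capitals, to set the called and uncalled promoters side by side.
Lnpk, chr2:74578949-74579198, minus strand: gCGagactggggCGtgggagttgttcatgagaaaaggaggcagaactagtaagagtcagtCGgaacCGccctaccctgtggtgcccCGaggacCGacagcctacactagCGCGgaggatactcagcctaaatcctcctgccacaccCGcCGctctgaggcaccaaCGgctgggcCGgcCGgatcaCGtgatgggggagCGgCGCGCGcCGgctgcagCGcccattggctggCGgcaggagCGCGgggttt
Mtx2, chr2:74825562-74825811, plus strand: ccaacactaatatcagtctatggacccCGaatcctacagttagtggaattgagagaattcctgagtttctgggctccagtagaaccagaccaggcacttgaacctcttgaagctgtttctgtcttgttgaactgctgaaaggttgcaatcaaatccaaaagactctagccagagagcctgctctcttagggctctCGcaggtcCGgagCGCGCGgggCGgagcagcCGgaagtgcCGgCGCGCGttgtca
Hoxd13, chr2:74667975-74668224, plus strand: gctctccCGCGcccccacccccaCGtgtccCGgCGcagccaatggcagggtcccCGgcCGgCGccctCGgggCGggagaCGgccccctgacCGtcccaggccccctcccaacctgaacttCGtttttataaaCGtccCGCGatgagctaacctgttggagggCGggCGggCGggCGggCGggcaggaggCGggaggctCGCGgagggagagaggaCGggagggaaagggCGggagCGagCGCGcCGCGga
Hoxd1, chr2:74762730-74762979, plus strand: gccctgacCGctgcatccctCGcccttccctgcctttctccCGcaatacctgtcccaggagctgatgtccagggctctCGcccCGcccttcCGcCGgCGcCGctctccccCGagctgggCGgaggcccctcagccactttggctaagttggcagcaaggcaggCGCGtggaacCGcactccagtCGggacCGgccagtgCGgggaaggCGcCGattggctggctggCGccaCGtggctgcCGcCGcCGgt
Hoxc4, chr15:103034145-103034394, plus strand: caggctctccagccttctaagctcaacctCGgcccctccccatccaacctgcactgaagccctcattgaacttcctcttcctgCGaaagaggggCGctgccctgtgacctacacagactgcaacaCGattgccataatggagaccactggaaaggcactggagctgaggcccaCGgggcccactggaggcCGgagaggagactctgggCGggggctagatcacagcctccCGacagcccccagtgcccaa

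The Lnpk window holds 23 CpGs and lay under the lactate peak over all 250 bases and under the control peak over 178. The Mtx2 window holds 12 CpGs and shared 124 bases with the lactate peak, while the control peak began 28 bases past it. The Hoxd13 window holds 31 CpGs and the Hoxd1 window 24, more than either neighbour, and their nearest peaks lay 88.7 kb and 62.7 kb away in the lactate library. The Hoxc4 window holds 8 CpGs, and its nearest peak was 33.2 kb away in control cells and 33.8 kb away in the lactate library.

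The promoter table (300 bases, with 250 before and 50 after the start) had entries for 22 of the 39 Hox genes; none of these 22 had a call. Their median CpG count was 17.5 (range 4 to 45), beside 15 over 17492 protein-coding genes with an entry. Gene-end calls rose with CpG count over all genes: 10.1% of genes with at most 4 CpGs were called in control cells and 8.54% in the lactate library, and 49.3% and 70.8% of those with 26 or more. Of the 22 Hox genes, 2 had at most 4 CpGs and 9 had 5 to 15, where 28.3% of all genes were called with NaCl and 40.5% with lactate. A further 6 had 16 to 25 CpGs, where 46.9% of all genes were called in control cells and 67.7% in the lactate library, and 5 had 26 or more. The motif TGATTNAT, bound by Pbx and Hox proteins together, was found on either strand in 2 of 24 Hox promoter windows (8.33%, Hoxa2 and Hoxd11) and in 3.22% of all windows. The TATA box TATAAA was found in 4 of the 24 (16.7%) and in 13.6% of all. The letters of these motifs can overlap in a window, but no Hox gene had both, and a match is a match of letters only.

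Homeobox genes outside the clusters are also developmental regulators. They were taken by symbol from a chosen list of families, so the 132 genes are not all of them. Tgif1 and Tgif2, for example, are not included. Some of the 132 are also in the TALE, upstream, flanking and neuroblastoma lists below. Of the 132, 13 were called in control cells, or 9.85% (5.35% to 16.3%), and 30 in the lactate library, or 22.7% (15.9% to 30.8%). Both intervals lay below the 32.0% and 44.8% of all genes. Both libraries called 11 of them (8.33%, beside 28.6% of all genes). The control alone called 2 (1.52%, beside 3.34% of all genes), Irx2 and Pou5f2, with 18 summit reads each. The lactate library alone called 19 (14.4%, near the 16.2% of all genes), at 11 to 26 reads. These included Barhl1, Dbx2, Dlx2, Lhx2, Lhx4, Lhx6, Meis3, Pbx3, Phox2a, Pitx3, Pou2f2, Pou4f1, Pou6f1, Prox2, Satb1, Six2, Tlx3 and Vax2. The intervals of the shares called in each library overlapped those of the Hox genes, which does not show that the shares are equal. Among those called in both, the highest folds in either library were at Pbx4, Onecut2, Isl1 and Pou2f1. Isl1, which specifies motor and sympathetic neurons, had 30 summit reads in each library (20.2 to 42.8).

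The TALE cofactors, homeodomain proteins that bind DNA together with Hox proteins, had calls at 3 of 11 genes in control cells (27.3%, 6.02% to 61.0%) and 8 of 11 in the lactate library (72.7%, 39.0% to 94.0%), with intervals that held the 32.0% and 44.8% of all genes. Pbx4 had 14 summit reads in control cells (7.65 to 23.5) and 38 in the lactate library (26.9 to 52.2), with intervals that did not overlap. The share of all genes with such separate intervals was not counted. Meis1 had 14 and 28 reads and Pknox1 had 15 and 25, with overlapping intervals. The lactate library alone called 5 of the 11 (45.5%, 16.7% to 76.6%, beside 16.2% of all genes). These genes included Pbx3, Meis3, Tgif1 and Tgif2, with 16 to 23 summit reads. Meis2, Pbx2 and Pknox2 had no call. Over the 15456 pairs of overlapping peaks, the summit was 1.23 times higher in the lactate library at the median.

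Regulators that act before Hox genes, and the related ParaHox genes, had no call in either library at 15 of 18, beside 11354 of all 21887 genes. The shares called were 16.7% with NaCl (3.58% to 41.4%), an interval that held the 32.0% of all genes, and 11.1% with lactate (1.38% to 34.7%), which did not reach 44.8%. Calls included the retinoic acid receptor Rarg, with 12 summit reads in control cells and 22 with lactate, and Cyp26b1, which degrades retinoic acid, with 15 reads and a call with NaCl alone. The caudal factors Cdx1, Cdx2 and Cdx4, the ParaHox genes Pdx1, Gsx1 and Gsx2, and Evx1 and Evx2 at the cluster borders had none.

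Among genes of the chromatin machinery that represses or maintains Hox clusters, 7 of 20 Polycomb genes were called with NaCl (35%, 15.4% to 59.2%) and 12 of 20 with lactate (60%, 36.1% to 80.9%). Both intervals held the 32.0% and 44.8% of all genes. The methyltransferase Ezh2 had 16 and 33 summit reads, the ubiquitin ligase Rnf2 18 and 33, Mtf2 22 and 34, Cbx7 20 and 40, and Yy1 13 and 31. Called in the lactate library alone were Suz12, Jarid2, Ezh1, Phc1 and Ring1, with 16 to 23 reads. That is 25% (8.66% to 49.1%), an interval that held the 16.2% of all genes. Of 12 trithorax and demethylase genes, 2 were called in both libraries (16.7%, 2.09% to 48.4%, beside 28.6% of all genes). Ash1l had 17 and 36 reads and Rbbp5 had 18 and 25, with overlapping intervals. The lactate library alone called 5 (41.7%, 15.2% to 72.3%, beside 16.2% of all genes), the methyltransferases Kmt2a and Kmt2b, their partners Men1 and Psip1, and the shared subunit Wdr5, with 17 to 24 reads. Of 6 insulator and cohesin genes, Ctcf, Smc1a, Smc3, Stag2 and Zfp143 were called in both libraries (83.3%, 35.9% to 99.6%, beside 28.6% of all genes). They had 12 to 25 summit reads in control cells and 19 to 35 with lactate, and Rad21 had no call in either.

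**Figure D4:**
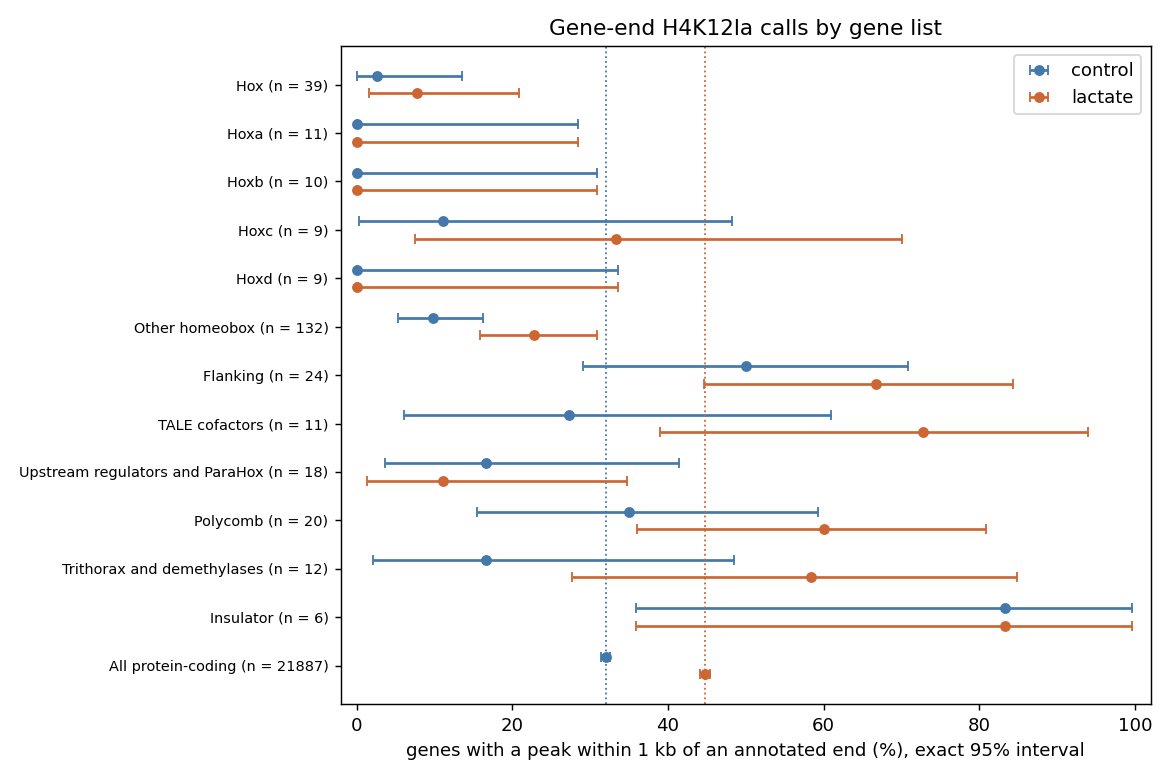
Share of genes with a peak within 1 kb of an annotated end (percent, points) in control cells and the lactate library, with exact 95% intervals, for the Hox genes, each cluster and the gene lists. Dotted lines give the share over all protein-coding genes, 32.0% and 44.8%. The Hox points sit at 2.56% and 7.69%, left of both lines.

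The clusters were duplicated along with some neighbours, so that paralogs such as Cbx1, Cbx3 and Cbx5 (heterochromatin protein 1) and Atp5g1, Atp5g2 and Atp5g3 (the ring subunit of ATP synthase) still flank different clusters. Of the 24 genes that are the 3 nearest on either side of each cluster, 12 were called in control cells, (29.1% to 70.9% of them), and 16 in the lactate library, or 66.7% (44.7% to 84.4%). These intervals held the 32.0% and 44.8% of all genes. The 3 Cbx genes were called in both libraries. Cbx3 had 18 summit reads in control cells (10.7 to 28.4) and 43 in the lactate library (31.1 to 57.9), with intervals that did not overlap, and Cbx1 had 18 and 20. Cbx5 and Hnrnpa1, whose ends adjoin beyond Hoxc, shared a peak with 15 (8.40 to 24.7) and 36 reads (25.2 to 49.8), whose intervals did not overlap either. The share of all genes with such separate intervals was not counted. Among those called in both libraries, ranked by the higher fold of either, the first 4 were Lnpk (6.15), Hibadh (5.61), Snx11 (5.53) and Mtx2 (5.42), each in the lactate library. Atp5g2 had 30 reads in control cells and 52 in the lactate library. Atp5g1, Atp5g3, Snx10 and Calcoco1 were called in the lactate library alone, with 16 to 28 reads. They are 16.7% of the 24 (4.74% to 37.4%), near the 16.2% of all genes. Of the 24 genes, those with no call in either library were Skap2 and Evx1 around Hoxa, Calcoco2, Ttll6 and Skap1 around Hoxb, Smug1 around Hoxc, and Evx2 and Gm50595 around Hoxd. The 24 genes lay 6705 bp (Evx2) to 893963 bp (Hnrnpa3) from their cluster, so many do not border it. The called genes nearest to a cluster were Mtx2 (60670 bp) and Lnpk (88767 bp). Evx2, Ttll6 (28134 bp) and Evx1 (52618 bp), without a call, lay nearer.

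Of 11 genes that mark noradrenergic neuroblastoma cells, 3 were called in control cells (Stmn2, Isl1 and Hand2, 27.3%) and 5 in the lactate library (Stmn2, Isl1, Elavl4, Phox2a and Tubb3, 45.5%), beside 32.0% and 44.8% of all genes, while others, among them Gata3, Th, Dbh and Mycn, had no call. None of 8 markers of other cell types had a call in either library (0%, with an interval up to 36.9%). That interval held the 32.0% of all genes in control cells but did not reach the 44.8% in the lactate library.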

How the data were processed

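H4K12la CUT&Tag was profiled in 1 control and 1 lactate library (paired reads, 150 bases, per the labels). The submitters' processing notes name BWA, deepTools, MACS2 and mm10; versions, settings and any control library or spike-in were not stated there. The authors deposited a separate MACS2 peak list for each library. Its fold is a ratio of summit to local background, as deposited. The deposited −log10 p and q values describe the summit, and the score deposited with them is the −log10 q times 10 as a whole number. These authors' values were used only within a list. The lowest −log10 q was 1.30 in each list.

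Chromosomes 1 to 19, X and Y were used. MACS2 writes fold as (pileup + 1)/(background + 1) together with a Poisson p, and both were solved for a whole-number summit pileup and its background. The solution met the p within 0.001 at 46591 of 46592 peaks of the control and at each of 39768 of the lactate library. Read totals are not in the lists, and relative depth came from the genome-wide backgrounds, 2.96 and 3.06 reads. Intervals are exact Poisson (reads, peaks) or Clopper-Pearson (shares) at 95%. A gene was called where a peak met, by at least 1 bp, the 1 kb on either side of either annotated end, as the gene table gives no strand and no exons. The summit reads and fold of a gene are those of its highest-fold peak there, chosen separately in each library. Values of a gene in the libraries may thus come from different positions. Each chromosome was taken to end at its last gene or peak. The solver and the calling step were tested on simulated data.

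Every called Hox gene and every cluster peak was named. Of other lists, members called in 1 library alone and up to 4 of the highest fold called in both (by the higher fold of either library) were named, and other genes were added after their values were seen. A few genes that this rule covers are not reported here. Eng and Islr, 2 symbols that match the homeobox rule without being homeobox genes, were left out. The members and lists were chosen with earlier results of these data known. Alternatives were other thresholds, list lengths, windows, spans and overlap criteria. Python 3.11.15, numpy 2.4.6, pandas 2.3.3 and scipy 1.17.1 were used.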

Additional observations from a re-analysis of the deposited data

How the results depend on the processing

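Of 46 values under alternatives, 25 stayed within 1.5 times the reported count and 21 moved beyond it. Some of those that stayed could not have moved (given below). With a −log10 q of at least 5, Hox genes called were 0 with NaCl and 1 with lactate (Hoxc6, so 1 lactate-only), cluster peaks 0 and 1, and peaks with a partner 0 and 0, beside 8.54% and 24.1% of all genes called. With at least 10, Hox genes called, lactate-only genes and cluster peaks were 0 in both libraries. Of all genes, only 0.959% were called at that threshold in control cells and 5.13% in the lactate library. With a window of 500 bp the lactate library called 1 Hox gene, Hoxc10, and none was lactate-only. With 3 kb the control called 2 (Hoxc10 and Hoxc6) and the lactate library 4. With the 5′ end alone, known for 22 Hox genes that do not include Hoxc6, Hoxc9 or Hoxc10, calls were 0 and 0 and lactate-only genes 0. With the summit in the window, 1 gene was lactate-only, Hoxc9. With an overlap of at least 0.5 of the shorter peak, 1 control and 1 lactate peak had a partner, instead of 2 and 2. The alternatives change the threshold or the window by construction; no other cause was tested. Lists of the same length changed no count, but that length, 39768, is the lactate list's own, so only the control list was cut. Spans widened by 10 kb could not add a peak, since the nearest peak outside any cluster lay 31.4 kb away. Merging peaks within 500 bp gave 5 lactate peaks. No alternative run could have given Hoxa, Hoxb or Hoxd a gene-end call. Their gene ends lay at least 60.5 kb from any peak, and the widest window was 3 kb. No paired analysis was possible because each group has 1 library. Read depth sets the lowest callable summit, which rises with the local background from 11 reads to 27 at Hoxc9.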
